A study of Mus musculus with 2 samples.

Results

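The insulin-like growth factor 1 gene Igf1, its receptor gene Igf1r and 6 genes of the IGF binding protein family (Igfbp2, Igfbp3, Igfbp4, Igfbp5, Igfbp6 and Igfbp7) were followed across the cell types of the embryonic mouse limb. The 8 genes were taken by symbol from the gene lists of both count matrices, which hold 32285 genes each. The matrices come from droplet single-cell RNA sequencing of limb skeletal muscle of wild-type C57Bl/6 mice on embryonic day E12.5 or E15.5, forelimbs and hindlimbs together, with 1 library per age and no treatment named in the labels. How many embryos were pooled is not given in the labels. Variation between animals was therefore not measured, no test between ages was possible, and every 95% interval below covers counting error only.

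IGF1 is a secreted growth factor that acts through IGF1R, a receptor tyrosine kinase at the cell surface, and is known as a promoter of muscle and cartilage growth. The IGF binding proteins are secreted too. They hold IGFs in the extracellular fluid and matrix, where they can prolong their life, carry them to the receptor or keep them from it, and proteases such as PAPP-A release the ligand by cutting some of them. IGFBP6 favours IGF2 over IGF1, and IGFBP7 is a related protein that binds IGFs weakly.

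Gene positions are those of the mouse build GRCm38. Igf1 lies at chr10:87858265-87937042 on the plus strand and Igf1r at chr7:67952827-68233668 on the plus strand. Among the binding proteins, Igfbp3 lies at chr11:7206086-7213923 (minus), Igfbp4 at chr11:99041244-99054392 (plus), Igfbp6 at chr15:102144362-102149511 (plus) and Igfbp7 at chr5:77349240-77408041 (minus). Igf1 overlaps the antisense gene Igf1os, and Igfbp7 overlaps Polr2b and Gm34648 on the other strand. The strand setting of the counting is not given in the sources used here, and whether reads of such overlapping pairs were kept apart by strand was not checked.

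Igfbp2 (chr1:72824503-72852474, plus strand) and Igfbp5 (chr1:72857932-72874884, minus strand) are neighbours that run towards each other, with 5.457 kb and 0 protein-coding genes between their ends. Their levels split by cell type in different ways, as described below, so the 250 bases before the RefSeq start of each are shown, for Igfbp2 before the first of the 2 starts listed (RefSeq, build GRCm38.p6, 5′ to 3′ on the gene's own strand). The Igfbp2 window is chr1:72824230-72824479 on the plus strand, and the Igfbp5 window is chr1:72874866-72875115 on the minus strand.
Igfbp2: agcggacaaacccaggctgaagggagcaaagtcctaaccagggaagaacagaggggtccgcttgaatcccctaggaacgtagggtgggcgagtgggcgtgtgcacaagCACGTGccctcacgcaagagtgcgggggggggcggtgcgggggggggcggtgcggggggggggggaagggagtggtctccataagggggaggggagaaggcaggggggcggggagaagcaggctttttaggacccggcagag
Igfbp5: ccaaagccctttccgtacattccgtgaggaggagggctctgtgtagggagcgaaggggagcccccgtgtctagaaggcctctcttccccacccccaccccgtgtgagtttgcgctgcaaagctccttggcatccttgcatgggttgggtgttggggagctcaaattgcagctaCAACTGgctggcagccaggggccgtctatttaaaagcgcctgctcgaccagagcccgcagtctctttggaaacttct
Capitals mark CANNTG, the general E-box letters of basic helix-loop-helix proteins, searched on both strands together with TATAAA. Each window held 1 CANNTG match and 0 TATAAA matches. Of 32851 RefSeq promoter windows of the same length, 66.2% held CANNTG and 12.4% held TATAAA, and the first was found for 6 of the 8 genes. A match describes letters in a window and was not tested as a binding site.

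The E12.5 library held 12941 cell barcodes and 34907675 UMIs (unique molecular identifiers, which mark single captured RNA molecules), and the E15.5 library 5780 barcodes and 46966083 UMIs. Filtering and doublet removal left 11001 cells with a median of 2322 UMIs at E12.5, then 3916 cells with a median of 9336 UMIs at E15.5. The libraries shared 17 barcode sequences. Clusters were named "X-like" from marker genes. None of the 8 genes was used in the clustering. Connective tissue-like cells were most numerous (6689 and 1679 cells). Muscle-like cells, in which all 18 muscle markers had UMIs, made up 5.45% of kept cells (600) at E12.5, then 10.1% (394) at E15.5, so most cells of this tissue labelled as muscle belonged to other classes. Chondrocyte-like (1115 and 315), joint interzone-like (1486 and 337), endothelial-like (132 and 152), immune-like (28 and 82) and Schwann-like (24 and 50) cells were found at both ages. Tenocyte-like, mural-like, mast cell-like and melanocyte-like clusters took a name at E15.5 only. Levels below are CPM, in which the summed UMIs of a class are scaled to 1000000. Classes under 20 cells in a library (epithelial-like at E12.5, erythroid-like at E15.5) and unnamed clusters were left out of the order of levels.

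**Figure D1:**
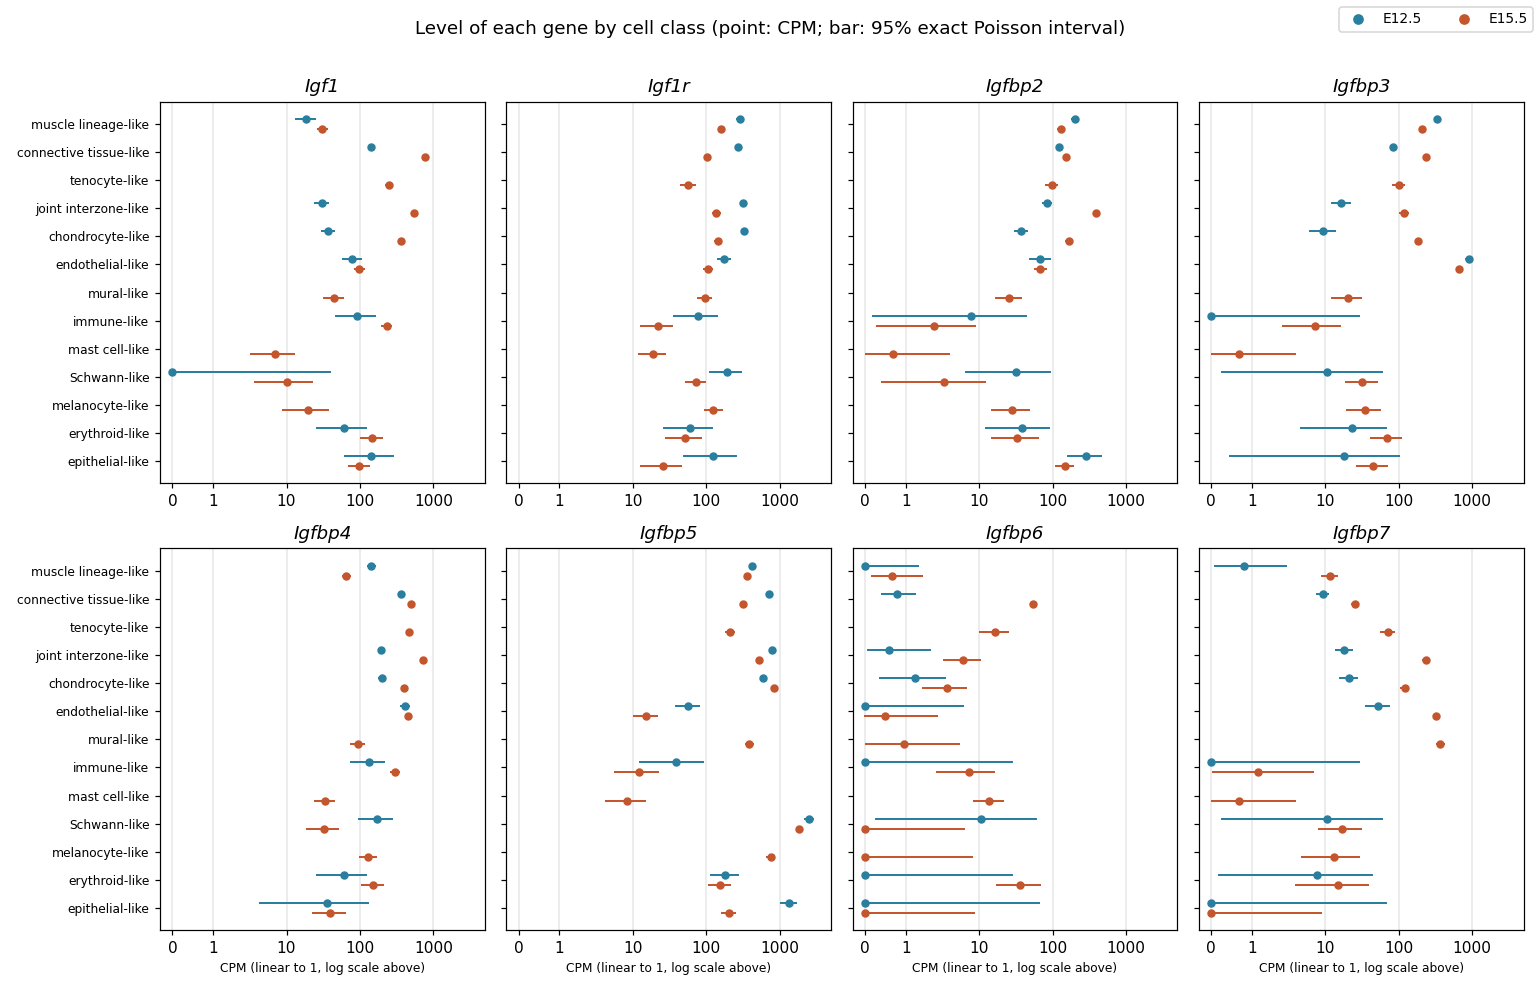
Level of each of the 8 genes in every named class, as CPM on an axis that is linear up to 1 and logarithmic above, with points for E12.5 (blue) and E15.5 (orange) and bars for 95% exact Poisson intervals of counting error. Igf1 stood at 141 CPM in connective tissue-like cells at the earlier age and 760 CPM at the later, Igfbp3 was highest in endothelial-like and Igfbp5 in Schwann-like cells at both ages.

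The ligand gene Igf1 was carried mainly by connective tissue-like cells at both ages, and its level there was 5.40-fold higher at E15.5. Connective tissue-like cells held 78.0% of the library's Igf1 UMIs at E12.5, then 72.9% at E15.5. The class made up 60.8% and 42.9% of the kept cells. At E12.5 Igf1 stood at 141 CPM (interval 135 to 147) in these cells, at 92.4 in immune-like, 79.0 in endothelial-like, 60.9 in erythroid-like, 36.7 in chondrocyte-like, 30.1 in joint interzone-like and 18.2 in muscle-like cells, with 0 UMIs in the 24 Schwann-like cells. The intervals of immune-like and connective tissue-like cells overlapped, as did those of each class with the next down to joint interzone-like cells, whereas muscle-like cells lay below them (13.3 to 24.3). Outside the order, the 865 unnamed E12.5 cells held 177 CPM (158 to 197), above connective tissue-like cells, and 10.7% of the Igf1 UMIs. The 19 epithelial-like cells held 143 CPM (61.8 to 282). By E15.5 the order was clearer, with 760 CPM (748 to 773) in connective tissue-like, 551 in joint interzone-like, 366 in chondrocyte-like, 250 in tenocyte-like and 232 in immune-like cells. Those levels did not overlap from one class to the next, except tenocyte-like with immune-like cells. Endothelial-like (98.6) and epithelial-like (98.0) cells followed and overlapped each other. Lower again, and each overlapping the next, were mural-like (43.9), muscle-like (30.7), melanocyte-like (19.5), Schwann-like (10.1) and mast cell-like cells (6.91). The class with the highest level was the same at both ages for 3 of the 8 genes, namely Igf1, Igfbp3 and Igfbp5. The same count was not made over all genes, so it is a description only. For Igf1, immune-like cells were the highest E12.5 class in 3 of 13 alternatives. For genes other than these 3, a different highest class need not be a shift between cell types. Mural-like cells, highest for Igfbp7 at E15.5, had no E12.5 cluster. The highest E12.5 class of Igfbp6, Schwann-like, had 1 UMI, and the highest Igf1r classes overlapped the next at both ages.

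Within the connective tissue-like class Igf1 ranged widely between clusters. At E12.5 it ran from 25.8 CPM in the cluster led by Twist2, Thsd4 and Scn1a to 264 CPM in the cluster led by Slitrk6, Irx3 and Macc1. By E15.5 the cluster led by Fst, Sfrp4 and Tmem158 reached 1054 CPM. The other Twist2 cluster (Twist2, Stmn2, Irx1), which was again the lowest, held 20.03 CPM. Late fibroblast-like cells, 249 cells of 2 E15.5 clusters named from genes such as Dpt and Pi16, carried 336 CPM, below the class as a whole. The 3 chondrocyte-like clusters at E15.5 differed as well. The cluster led by Mia, Matn4 and Cytl1 held 437 CPM, the one led by Nusap1, Lockd and Spc24 406 CPM, and the one led by the cartilage matrix genes Matn1, Col2a1 and Col9a1 held 30.5 CPM. In the immune-like class Igf1 was at 237 CPM in the cluster led by the macrophage genes Lyz2, C1qb and C1qc.

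In muscle-like cells Igf1 was low at both ages. After thinning each cell to 2000 UMIs, 3.28% of muscle-like cells (1.95 to 5.13) had an Igf1 UMI at E12.5, then 6.44% (4.21 to 9.36) at E15.5, while connective tissue-like cells went from 18.9% to 62.8%. Without thinning the muscle-like shares were 6.17% and 19.3% at median depths of 3746.5 and 14272 UMIs. Mast cell-like cells at E15.5 had 0 of 68 thinned cells with an Igf1 UMI, which allows a share of up to 4.41% by the limit of 3 counts and 5.28% by the Clopper-Pearson interval, and melanocyte-like cells had 6.98% (1.46 to 19.1). The muscle-like share at E15.5 lay within the wide melanocyte-like interval and above the mast cell-like upper limit of 5.28%, though its own interval reached below that limit. Whether these UMIs were made in muscle cells was not tested.

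The receptor gene Igf1r was carried by the skeletal, connective and muscle classes at 269 to 325 CPM at E12.5, and was lower at E15.5 in all 7 classes compared. At E12.5 it stood at 325 CPM in chondrocyte-like, 321 in joint interzone-like, 285 in muscle-like and 269 in connective tissue-like cells, each overlapping the next. Schwann-like (191) and endothelial-like (174) cells followed, and immune-like (77.0) and erythroid-like (60.9) cells were lowest. At E15.5 muscle-like cells were highest with 159 CPM (149 to 169), overlapping chondrocyte-like (145) and joint interzone-like cells (138). Next came melanocyte-like (126), endothelial-like (106), connective tissue-like (103), mural-like (95.4), Schwann-like (72.2) and tenocyte-like cells (56.7), and the lowest were epithelial-like (25.7), immune-like (21.8) and mast cell-like cells (18.6), with each class overlapping the next down the order. The log2 ratio of E15.5 over E12.5 was -1.39 (-1.47 to -1.31) in connective tissue-like, -1.22 in joint interzone-like, -1.17 in chondrocyte-like, -0.84 (-0.98 to -0.70) in muscle-like and -0.72 in endothelial-like cells. Relative to the median gene of the class, the ratio was -1.02 in connective tissue-like and -0.48 in muscle-like cells.

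Inside the muscle lineage Igf1r was higher in muscle progenitor-like cells (Pax7, Msc) than in differentiating myocyte-like cells (Myog, Myh3, Mylpf). The levels were 336 against 197 CPM at E12.5, then 173 against 116 CPM at E15.5, and the log2 ratio of myocyte-like over progenitor-like cells was -0.77 (-1.03 to -0.53) and -0.58 (-0.82 to -0.34). The progenitor-like cells themselves went from 336 to 173 CPM. Thinned shares of cells with an Igf1r UMI were 46.5% of progenitor-like and 33.0% of myocyte-like cells at E12.5, against 27.2% and 12.2% at E15.5. Outside the muscle lineage, a small unnamed E15.5 cluster (70 cells) was led by the noncoding transcript Gm26917. It held 489 CPM of Igf1r and 1179 CPM of Igf1. Its cells were shallow, with a median of 2818 UMIs against 9336 in all kept E15.5 cells. In this cluster 12 connective tissue markers passed the 2-fold limit of the naming rule. Whether it is a separate cell type was not tested.

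Among classes of at least 20 cells, Igfbp2 was highest in muscle-like cells at E12.5 and in joint interzone-like cells at E15.5. The E15.5 order rests on the clustering: another class was highest in 7 of 13 alternatives, none of which held a joint interzone-like class. IGFBP2 is known as a fetal binding protein with an integrin-binding motif. At E12.5 muscle-like cells held 201 CPM (184 to 219), above connective tissue-like cells with 123 (118 to 128), joint interzone-like with 84.6, endothelial-like with 67.7, erythroid-like with 38.1, chondrocyte-like with 37.4, Schwann-like with 31.8 and immune-like cells with 7.70. From joint interzone-like cells down each class overlapped the next. Outside the order, the 19 epithelial-like E12.5 cells held 286 CPM of Igfbp2 (164 to 465) from 16 UMIs. Epithelial-like cells were the highest E12.5 class in 1 of 13 alternatives. At E15.5 joint interzone-like cells held 393 CPM (368 to 420), well above chondrocyte-like (167), connective tissue-like (153), epithelial-like (147) and muscle-like cells (129), which overlapped one with the next. Tenocyte-like cells had 97.1 CPM, endothelial-like 68.0, melanocyte-like 28.1 and mural-like 25.8, and Schwann-like, immune-like and mast cell-like cells had 2, 2 and 1 UMIs. A connective tissue-like cluster stood out at each age, with 353 CPM in the cluster led by Shisa2, Fras1 and Ptprt at E12.5, and 356 CPM at E15.5 in the Twist2, Stmn2 and Irx1 cluster, the same cluster in which Igf1 was lowest. In the muscle lineage, progenitor-like cells had more Igfbp2 than myocyte-like cells at both ages (221 against 166 CPM, then 141 against 93.7).

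Igfbp3 was highest in endothelial-like cells at both ages, with 894 CPM (821 to 971) at E12.5, then 663 CPM (628 to 699) at E15.5. IGFBP3 is the main carrier of IGFs in the circulation after birth. Muscle-like cells came next at E12.5 with 329 CPM (306 to 352), followed by connective tissue-like cells with 82.6, erythroid-like with 22.9, joint interzone-like with 16.5, Schwann-like with 10.6 and chondrocyte-like cells with 9.27, and immune-like cells had 0 UMIs. The classes from erythroid-like cells down overlapped. At E15.5 connective tissue-like cells (236) lay just above muscle-like cells (207 CPM, 196 to 219), which overlapped chondrocyte-like cells (185). Joint interzone-like (117), tenocyte-like (99.9), epithelial-like (44.3), melanocyte-like (34.6), Schwann-like (31.9), mural-like (20.04), immune-like (7.26) and mast cell-like cells (0.691) were lower, with overlap from one to the next except between tenocyte-like and epithelial-like cells. Endothelial-like cells at E15.5 formed 2 clusters, and the one led by Fabp4, Cdh5 and Gpihbp1 carried 680 CPM while the one led by Gngt2, Fabp4 and Gimap1 carried 85.2 CPM. The latter had 31 cells with a median of 1467 UMIs, against 121 cells with a median of 12853, so its level rests on few UMIs.

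The connective tissue-like clusters differed in Igfbp3 as well, from 24.6 to 176 CPM at the earlier age and from 49.2 to 432 CPM at the later. The highest were the Aldh1a2, Ebf2 and Tshz2 cluster at E12.5 and the Aldh1a3, Ngfr and Cntfr cluster at E15.5. In the muscle lineage the 2 states, each taken as a whole, did not differ beyond counting error at E12.5 (336 CPM in progenitor-like, 316 in myocyte-like cells, log2 ratio -0.09 with an interval of -0.30 to 0.12). The myocyte-like value joins 2 unlike clusters, however. The Myog, Rbm24 and Mymx cluster held 383 CPM and the Myh3, Mylpf and Myl4 cluster (49 cells) 175 CPM. At E15.5 myocyte-like cells were slightly higher (235 against 198 CPM, log2 ratio 0.25, 0.06 to 0.43).

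Igfbp4 was broadly carried, with muscle in the lower part of the order at both ages. IGFBP4 is known as an inhibitor of IGF action that PAPP-A cleaves. At E12.5 endothelial-like (418 CPM) and connective tissue-like cells (361) overlapped at the top, and chondrocyte-like (198), joint interzone-like (194), Schwann-like (170), muscle-like (143) and immune-like cells (131) overlapped in a chain below, with erythroid-like cells (60.9) lowest. At E15.5 joint interzone-like cells were highest with 713 CPM (679 to 748), then connective tissue-like (500), tenocyte-like (471) and endothelial-like (458) cells, which overlapped one with the next. Another class was highest in 8 of 13 alternatives, of which 7 held no joint interzone-like class. Chondrocyte-like (404), immune-like (301), melanocyte-like (130) and mural-like (93.5) cells followed, and muscle-like cells held 65.4 CPM (59.2 to 72.2), below mural-like cells without overlap. Epithelial-like (39.7), mast cell-like (33.2) and Schwann-like cells (31.9) were lowest and overlapped in a chain with muscle-like cells. An unnamed E12.5 cluster led by Aspn, Tbx3os1 and Tbx3 (269 cells) had the highest Igfbp4 of any E12.5 cluster, 1104 CPM. Progenitor-like and myocyte-like cells did not differ beyond counting error at either age (142 and 143 CPM, then 65.2 and 66.0 CPM).

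Igfbp5 was highest in Schwann-like cells at both ages, with 2502 CPM (2193 to 2843) in 24 cells and 1841 CPM (1734 to 1954) in 50 cells. IGFBP5 binds the extracellular matrix and is known from bone and muscle. At E12.5 joint interzone-like (792), connective tissue-like (721), chondrocyte-like (599), muscle-like (419), erythroid-like (183) and endothelial-like cells (56.5) followed without overlap, and immune-like cells (38.5) overlapped endothelial-like cells. The 19 epithelial-like E12.5 cells, left out of the order, held 1342 CPM (1056 to 1682) from 75 UMIs. At E15.5 the order after Schwann-like cells was chondrocyte-like (842) overlapping melanocyte-like (760), then joint interzone-like (528), mural-like (388), muscle-like (363), connective tissue-like (317), tenocyte-like (210) and epithelial-like cells (203). Of these, mural-like overlapped muscle-like and tenocyte-like overlapped epithelial-like cells. Endothelial-like (15.1), immune-like (12.1) and mast cell-like cells (8.29) carried little. An E12.5 connective tissue-like cluster, led by Gria2, Isl1 and Hoxb4, reached 2348 CPM, against 201 CPM in the cluster led by Alcam, Sostdc1 and Rspo3. At E15.5 the 7 connective tissue-like clusters lay between 270 and 383 CPM.

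Within the muscle lineage Igfbp5 separated the 2 states at both ages more than any other of the 8 genes with at least 20 UMIs in them. Progenitor-like cells held 596 CPM (558 to 636) at E12.5, then 469 CPM (450 to 490) at E15.5. Myocyte-like cells held 118 CPM (96.8 to 143) and 31.7 CPM (23.3 to 42.1). The log2 ratio of myocyte-like over progenitor-like cells was -2.34 (-2.64 to -2.05) at E12.5, where 14.1% of 9091 genes were at least 2-fold lower in myocyte-like cells, and -3.89 (-4.34 to -3.47) at E15.5, where 20.9% of 10232 genes were. By thinned shares, 60.0% of progenitor-like and 17.5% of myocyte-like cells had an Igfbp5 UMI at E12.5, against 55.0% and 6.67% at E15.5. The E12.5 cluster led by the sarcomere genes Myh3, Mylpf and Myl4 (49 cells) had 54.0 CPM and the Myog, Rbm24 and Mymx cluster 149 CPM. Its neighbour Igfbp2, shown with it above, had log2 ratios of -0.41 and -0.59 in the same comparison.

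**Figure D2:**
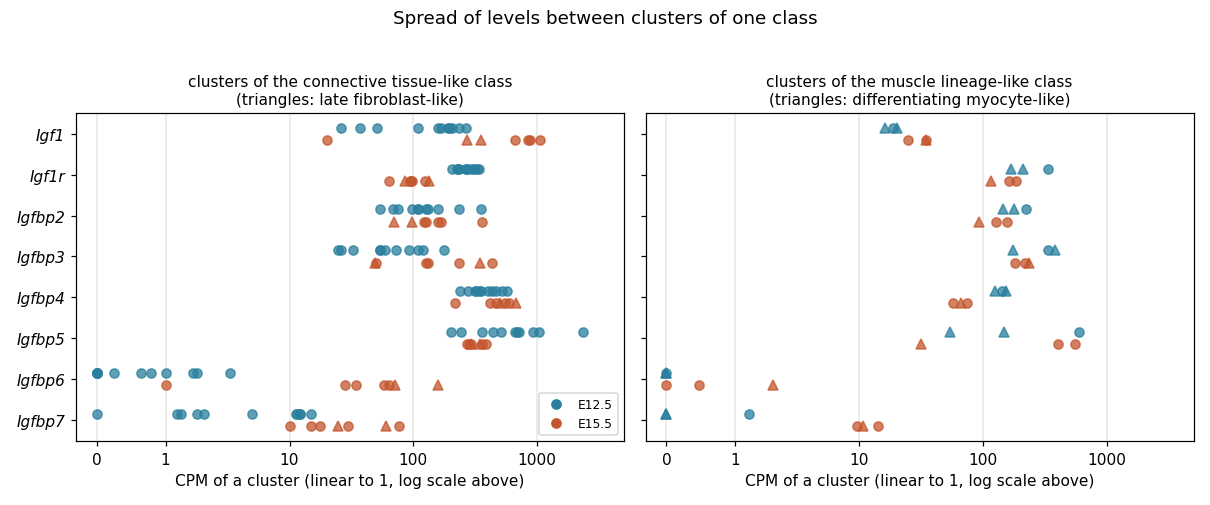
CPM of each gene in every cluster of the connective tissue-like class (left) and the muscle lineage-like class (right), 1 symbol per cluster, at E12.5 (blue) and E15.5 (orange), on an axis linear to 1 and logarithmic above. Triangles mark late fibroblast-like clusters on the left and differentiating myocyte-like clusters on the right, where Igfbp5 runs from 596 CPM in the E12.5 progenitor-like cluster to 54.0 CPM in the Myh3 cluster.

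Igfbp6 was nearly absent from the E12.5 counts and was found mainly in connective tissue-like cells at E15.5. At E12.5 the kept cells held 13 Igfbp6 UMIs in connective tissue-like, 4 in chondrocyte-like, 2 in joint interzone-like, 2 in unnamed and 1 in Schwann-like cells, and 0 in the others. At E15.5 connective tissue-like cells held 986 UMIs, which were 89.7% of the library's Igfbp6 UMIs, at 53.7 CPM (50.4 to 57.2). Tenocyte-like cells (16.3), mast cell-like (13.8), immune-like (7.26), joint interzone-like (6.05), chondrocyte-like (3.60), mural-like (0.954), muscle-like (0.658) and endothelial-like cells (0.486) were lower, and Schwann-like, epithelial-like and melanocyte-like cells had 0 UMIs. Late fibroblast-like cells led within the class with 140 CPM (126 to 154). Their cluster with Dpt, Apod and Cd55 had 157 CPM, the other, with Spink6, Anxa8 and Pi16, 71.0 CPM, and the Twist2, Stmn2 and Irx1 cluster 1.00 CPM. The share of connective tissue-like cells with an Igfbp6 UMI was 0.170% at E12.5, then 7.15% (5.96 to 8.49) at E15.5 after thinning, and 0.194% and 23.2% without it. In endothelial-like cells at E15.5, 0 of 131 thinned cells had one.

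Igfbp7 was highest in classes of the vessel wall. IGFBP7 is a secreted protein of blood vessels. At E12.5 endothelial-like cells were highest with 51.6 CPM (35.3 to 72.9), above chondrocyte-like (20.9), joint interzone-like (17.97), Schwann-like (10.6), connective tissue-like (9.15) and erythroid-like (7.62) cells, which overlapped in a chain, and muscle-like cells had 2 UMIs (0.809 CPM) and immune-like cells 0. At E15.5 mural-like (369 CPM) and endothelial-like cells (321) overlapped at the top. Joint interzone-like (236), chondrocyte-like (120) and tenocyte-like cells (70.1) came next, without overlap. Connective tissue-like (25.0), Schwann-like (16.8), melanocyte-like (12.99) and muscle-like cells (11.5) were low, and immune-like and mast cell-like cells had 1 UMI each. Of the 7 connective tissue-like clusters at E15.5, the Aldh1a2, Cxcl13 and Il33 cluster (75.8 CPM) and the late fibroblast-like cluster with Spink6, Anxa8 and Pi16 (60.1 CPM) were the highest. The other late fibroblast-like cluster, with 24.8 CPM, was their median, and the lowest had 10.05 CPM.

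Between the ages, the connective tissue-like class had higher levels of the ligand and several binding proteins and lower levels of the receptor and Igfbp5 at E15.5. All 8 genes had at least 20 UMIs there over both libraries. Igf1 (log2 2.43, 2.37 to 2.50), Igfbp3 (1.51), Igfbp6 (6.09, 5.31 to 7.01) and Igfbp7 (1.45) were at least 2-fold higher at E15.5, which 10.8% of 15016 genes were. Igf1r (-1.39) and Igfbp5 (-1.19) were at least 2-fold lower, which 24.2% of all genes were. Igfbp2 (0.32) and Igfbp4 (0.47) were higher by less than 2-fold, with intervals that left out 0. The median log2 ratio was 0.96 for the 8 genes and -0.37 for all genes, and Igfbp6 passed the UMI minimum through its E15.5 counts. Igf1 stood at 2.80 and Igfbp5 at -0.82 relative to the median gene, so that the call of Igfbp5 ended on that scale.

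In the muscle-like class Igfbp4 and Igfbp7 were past 2-fold, in opposite directions. Except for Igfbp6, with 4 UMIs, the genes had 20 UMIs or more (7 of 8). Igfbp4 was at least 2-fold lower (log2 -1.13, -1.34 to -0.91) beside 19.1% of 11227 genes, and Igfbp7 at least 2-fold higher (3.83, 1.92 to 6.90) beside 4.69%. Igfbp7 reached the minimum through its 70 UMIs at E15.5. Endothelial markers summed to 11.3 CPM in the muscle-like class at E12.5 (7 of 10 with UMIs) and to 28.4 CPM at E15.5 (10 of 10), and mural markers to 1405 and 571 CPM, with 6 and 8 of 10 with UMIs. The mural list holds Acta2, which was among the 10 leading genes of the E12.5 Myog, Rbm24 and Mymx cluster. The mural sum is therefore not a measure of mural RNA alone. The part of either cell type in the Igfbp7 level was not tested. Igf1 had a log2 ratio of 0.76, Igfbp2 of -0.64, Igfbp3 of -0.67 and Igfbp5 of -0.21. The median was -0.64 for the 7 genes and -0.36 for all genes. Relative to that median Igf1 came to 1.12, past 2-fold, Igfbp4 to -0.76, within 2-fold, and Igfbp5 to 0.15, with the other sign. Split by state, Igfbp4 was lower in progenitor-like (-1.13) and myocyte-like cells (-1.12) alike, while Igfbp5 had a log2 ratio of -1.90 in myocyte-like and -0.34 in progenitor-like cells.

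In the skeletal classes more of the genes were higher at E15.5. In joint interzone-like cells Igf1 (log2 4.20), Igfbp2 (2.22), Igfbp3 (2.83), Igfbp4 (1.88) and Igfbp7 (3.72) were at least 2-fold higher, beside 8.59% of all genes, and Igf1r was at least 2-fold lower, beside 21.7%. In chondrocyte-like cells the same 5 genes were higher (3.32, 2.16, 4.32, 1.03 and 2.52), beside 9.39%, and Igf1r was lower (-1.17), beside 14%. Not every chondrocyte-like cluster had the higher Igf1 level. Matn1 and Hapln1 led both E12.5 clusters of the class, which held 36.7 CPM of Igf1. The E15.5 cluster led by Matn1, Col2a1 and Col9a1 (44 cells), described above, lay no higher. Igfbp5 went from 599 to 842 CPM in chondrocyte-like and from 792 to 528 CPM in joint interzone-like cells, within 2-fold in both. The border between both classes moved with the clustering: in 6 of 8 other clusterings no E15.5 cluster took the joint interzone name. Taken as 1 class, they gave log2 ratios of 3.76 for Igf1, 2.11 for Igfbp2, 3.56 for Igfbp3, 1.47 for Igfbp4, 3.16 for Igfbp7 and -1.19 for Igf1r. With both libraries clustered together, only 45 E15.5 cells were chondrocyte-like. There Igfbp2 (-2.49) and Igfbp4 (-0.84) had the other sign, and the calls of Igf1 (0.85) and Igf1r (-0.82) ended. The chondrocyte-like call of Igfbp4 was lost in 4 of 13 alternatives. In joint interzone-like cells a mitochondrial limit of 5%, which left 121 such cells at E15.5, gave 1.74 for Igf1, ended the calls of Igfbp4 (0.86) and Igfbp7 (0.94) and put Igfbp5 (-1.56) past 2-fold. Relative to the median gene, the Igf1r call ended in joint interzone-like (-0.90) and chondrocyte-like cells (-0.93).

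In endothelial-like cells 2 of 7 genes were past 2-fold. Igfbp7 was higher (2.64, 2.13 to 3.20), beside 7.08% of 8942 genes, and Igfbp5 lower (-1.91, -2.65 to -1.17), beside 12.1%. Igfbp3 (-0.43) and Igf1r (-0.72) were lower within 2-fold, though the mean of per-cell CPM put Igf1r at -1.17, and Igf1 (0.32) and Igfbp4 (0.13) had intervals that held 0. In immune-like cells, 28 and 82 in number, Igf1 (1.33, 0.49 to 2.31) and Igfbp4 (1.20) were at least 2-fold higher, beside 14.5% of 6006 genes, and Igf1r (-1.82) was lower, beside 14.8%. In Schwann-like cells Igf1r (-1.40) and Igfbp4 (-2.41) were at least 2-fold lower, beside 14.5% of 5178 genes, and Igfbp3 was higher at 19 against 1 UMIs, with an interval of its log2 ratio from -1.06 to 6.97 (17.9% of genes were called higher there).

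**Figure D3:**
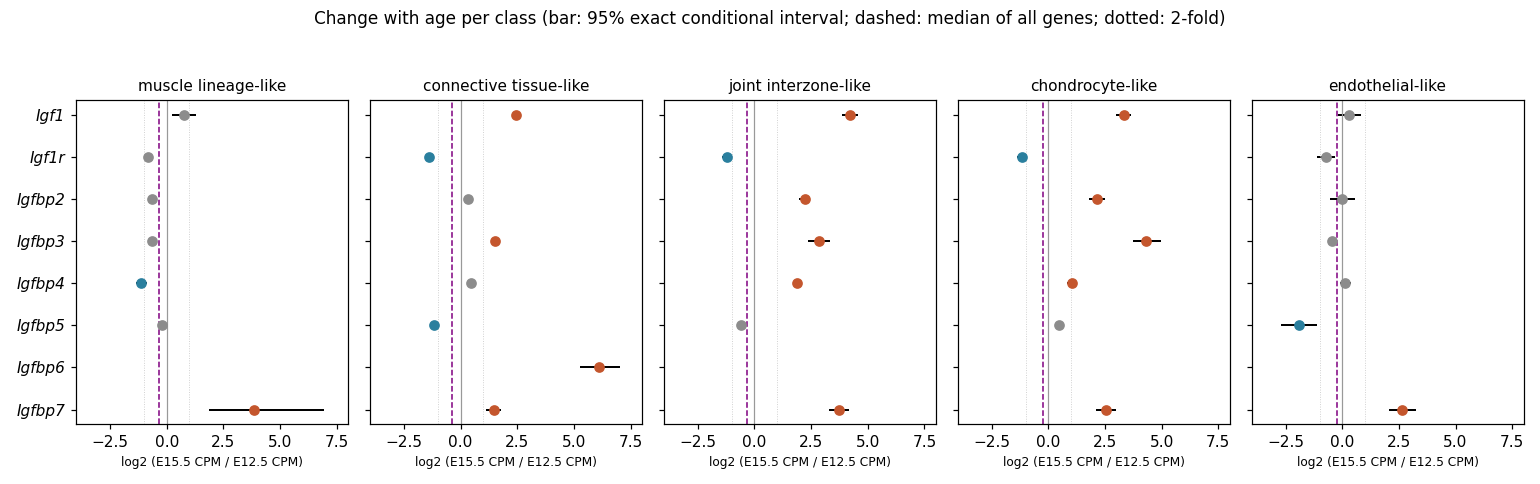
Log2 ratio of E15.5 over E12.5 CPM for each gene with at least 20 UMIs, in 5 classes, with bars for the exact conditional 95% interval, a dashed line at the median of all genes and dotted lines at 2-fold (orange past 2-fold higher, blue past 2-fold lower, grey between). Igf1r lies left of 0 in the 5 classes, and Igfbp4 is lower in muscle-like cells (-1.13) and higher in joint interzone-like cells (1.88).

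Shares of cells, read at equal depth, had the directions of the CPM for the genes given here. Each cell was thinned to 2000 UMIs, and cells below that depth did not enter. At E12.5 this left out 2583 of 6689 connective tissue-like and 51 of 600 muscle-like cells, against 1 and 6 at E15.5. It left out 634 of 1486 joint interzone-like and 317 of 1115 chondrocyte-like cells, against 2 and 0. The E12.5 shares of these classes thus rest on their deeper cells. In joint interzone-like cells the share with an Igf1 UMI was 5.63% (4.18 to 7.40) at E12.5, then 40.3% (35.0 to 45.8) at E15.5, and that with an Igfbp4 UMI 29.5% and 71.0%. For Igf1r the share was 40.1% and 19.1% in connective tissue-like and 41.7% and 23.7% in muscle-like cells. Unthinned, Igf1r was seen in 60.7% and 80.2% of muscle-like cells, which runs against the CPM, at the median depths of 3746.5 and 14272 UMIs given above. In immune-like cells at E15.5 the thinned Igf1r share was 3.45%, and in mast cell-like cells 1.47%.

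**Figure D4:**
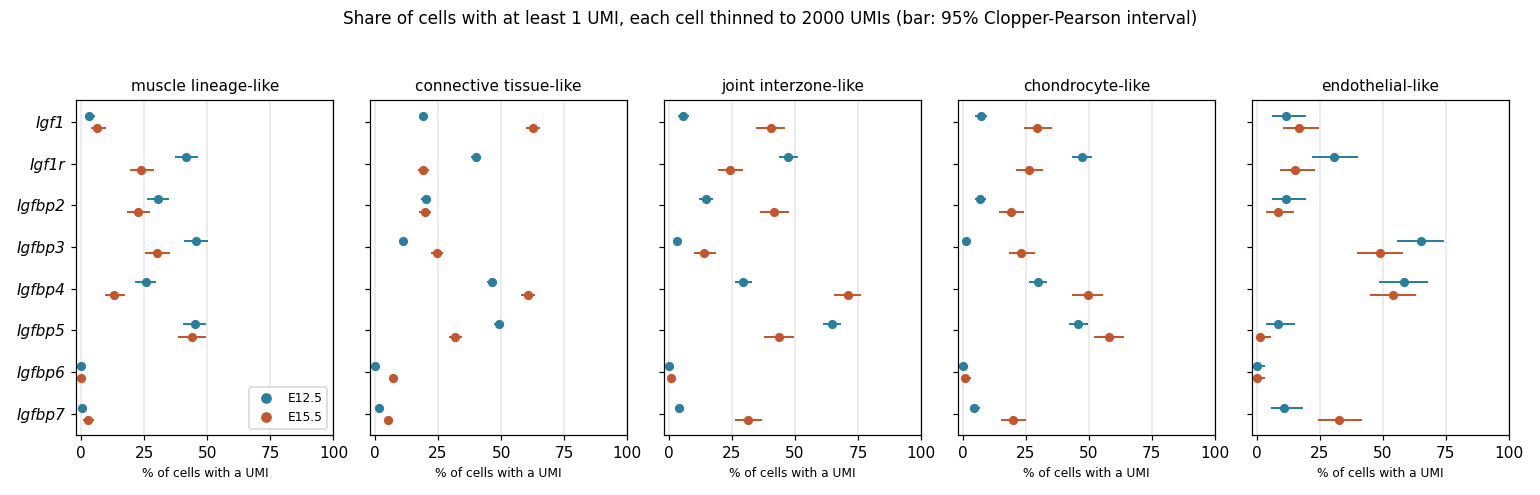
Percent of cells with at least 1 UMI of each gene after thinning every cell to 2000 UMIs, for 5 classes at E12.5 (blue) and E15.5 (orange), with 95% Clopper-Pearson intervals. The connective tissue-like share of Igf1 goes from 18.9% to 62.8%, and the endothelial-like share of Igfbp5 from 8.47% to 1.53%.

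Counted per cell, the number of different binding protein transcripts went opposite ways in muscle and cartilage. Cells with UMIs of 2 or more of the 6 Igfbp genes, after thinning, made up 46.8% (42.6 to 51.1) of muscle-like cells at E12.5, then 30.4% (25.9 to 35.3) at E15.5. In joint interzone-like cells the shares were 32.0% and 68.7%, in chondrocyte-like cells 17.9% and 53.3%, in connective tissue-like cells 37.8% and 45.6%, and in endothelial-like cells 49.2% and 48.1%. Cells with none of the 6 went from 16.4% to 28.4% among muscle-like cells.

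Carriage of the ligand and of the receptor by the same cell was then compared. Among connective tissue-like cells, 37.2% (33.8 to 40.8) of cells with an Igf1 UMI and 40.8% (39.1 to 42.4) of those without had an Igf1r UMI at E12.5, against 19.8% and 18.1% at E15.5, with overlapping intervals. Igfbp3 accompanied Igf1 at E12.5, in 16.1% (13.6 to 18.9) of Igf1-carrying and 9.76% (8.77 to 10.8) of other connective tissue-like cells, but at E15.5 the shares were 24.3% and 24.6%. In muscle-like cells at E12.5 Igfbp5 was found in 55.0% (48.3 to 61.6) of cells with Igf1r and 37.8% (32.5 to 43.4) of cells without. Both genes were higher in progenitor-like cells.

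Over 20 points (each named class of at least 20 cells in each library), the pattern of log2(CPM + 10) most like Igf1 was that of Egfl6 (Pearson r 0.82), followed by Colec12 and Ly6h. For Igf1r it was Zmynd11 (0.94), Pcgf3 and Zfp280d, for Igfbp2 Cops8 (0.83), Morc4 and Zfp112, and for Igfbp3 Arhgap29 (0.83), C230035I16Rik and Sncaip. Igfbp4 went with Rgs3 (0.87), Elf2 and Dchs1, Igfbp5 with Tenm3 (0.92), Dync2li1 and Ift74, Igfbp6 with Atp1b1 (0.76), Tmeff2 and Jph4, and Igfbp7 with Tm4sf1 (0.85), Bgn and Gcc1. These were the 3 closest of 11288 genes for each. Among the 8 genes themselves the closest pairs were Igf1 and Igfbp4 (0.69) and Igfbp2 and Igfbp3 (0.68), and the neighbours Igfbp2 and Igfbp5 had r 0.35. The points of a library share its depth and preparation, so these values are descriptions.

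Of 25 other genes of the IGF system, 20 had enough UMIs in the connective tissue-like class and 17 in the muscle-like class. In connective tissue-like cells 3 were at least 2-fold higher, beside 10.8% of all genes, namely Htra1 (log2 3.11), a protease that cleaves binding proteins, Adam12 (2.29), which also cleaves them, and Pappa2 (1.19), the close relative of PAPP-A. The insulin receptor gene Insr was lower (-1.10), beside 24.2%. In muscle-like cells 8 were at least 2-fold lower, beside 19.1% of all genes: Igf2 (-1.57), Insr (-1.07), the receptor substrates Irs1 (-1.40) and Irs2 (-1.19), the PI3-kinase subunit Pik3r1 (-2.12), the transcription factors Foxo1 (-2.31) and Foxo3 (-1.21), and the PAPP-A inhibitor Stc2 (-1.33). Htra1 was higher there (1.13, beside 4.69% of all genes) at 5 and 27 UMIs, with an interval that held 0 (-0.26 to 2.87). The median was -0.01 in connective tissue-like and -0.89 in muscle-like cells, beside -0.37 and -0.36 for all genes. Relative to the median gene, the muscle-like calls of Insr (-0.71), Irs2 (-0.83), Foxo3 (-0.85) and Stc2 (-0.96) ended. Those of Igf2 (-1.21), Irs1 (-1.03), Pik3r1 (-1.76) and Foxo1 (-1.95) stayed. The connective tissue-like call of Insr (-0.73) ended too. Igf2, the ligand that several binding proteins prefer, went from 1541 to 518 CPM in muscle-like and from 1874 to 1095 CPM in connective tissue-like cells. Igf2r, which clears IGF2, had log2 ratios of -0.75 and 0.16.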

How the data were processed

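Per the labels, cells were freed by mechanical force and trypsin, and 10x Chromium 3-prime v3.1 libraries were made from 20000 input cells each, aiming at 10000. The authors deposited raw UMI counts per gene and barcode. The submitters' processing notes name Cell Ranger 4.0.0, Seurat 4.3.0 and mm10; the annotation and strand setting are not given in the sources used here. The lowest deposited barcode total was 500 UMIs. Identifiers were matched to GENCODE annotation of GRCm38 (32235 of 32285, and 8 of the 8 genes described).

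Cells needed at least 500 genes and under 10% mitochondrial UMIs. Scrublet-like scores with 2 simulated doublets per cell were used to remove 1270 (10.3%, E12.5) and 190 cells (4.63%, E15.5), at 0.8% per 1000 deposited barcodes. Each library was clustered alone (10000 UMIs per cell, log, 2000 variable genes without the 8 genes, 25 other IGF system genes, 44 cell cycle genes and sex-linked genes, 30 principal components, 15 neighbours, Leiden resolution 1.0, seed 0; Python 3.11.15, scipy 1.17.1, scikit-learn 1.9.0, leidenalg 0.10.2), giving 26 and 29 clusters. A name needed 3 markers at least 2-fold over other cells and in 10% of cells, 1 of them among the top 10 genes and no other list with more there; tenocyte-like also needed Scx and Tnmd. Leftover clusters with 6 of 13 connective tissue markers 2-fold over non-skeletal named classes joined that class, unless another list had more top 10 genes or their median depth was over 3-fold below the library's with no connective tissue marker in the top 10; 865 and 551 cells stayed unnamed. This rule was set after seeing the clusters. The members and lists were chosen with earlier results of these data known.

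UMIs were summed per class as CPM with exact Poisson intervals; ratios have exact conditional intervals and shares exact binomial (Clopper-Pearson) intervals. A ratio was called past 2-fold with at least 20 UMIs over both libraries. The calculation was tested on simulated data. Named genes were all 8 members, Igf2, Igf2r and Insr, other listed genes past 2-fold in the muscle-like or connective tissue-like class, the 3 genes closest in pattern to each member (at least 100 UMIs per library), and the 3 leading genes of clusters. Genes named outside this rule: clusters and marker lists were described by markers such as Pax7, Myog, Pi16 and Acta2. No protein sequences were used here.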

Additional observations from a re-analysis of the deposited data

Results flagged for a closer look

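Igfbp2, Igfbp3 and Igfbp4 had log2 ratios of E15.5 over E12.5 with opposite signs in the muscle-like and the connective tissue-like class, with intervals that left out 0 in both. Igfbp2 had -0.64 in muscle-like and 0.32 in connective tissue-like cells. Igfbp3 had -0.67 and 1.51, and Igfbp4 -1.13 and 0.47. With 1 library per age the difference between the classes was not tested. How many of all genes had opposite signs in these classes was not counted. The connective tissue-like ratio of Igfbp2 kept its sign in all 13 alternatives but came down to 0.05 under a mitochondrial limit of 5%. Relative to the median gene, the signs stayed opposite, at -0.27 and 0.69 for Igfbp2, -0.30 and 1.88 for Igfbp3, and -0.76 and 0.84 for Igfbp4.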

How the results depend on the processing

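No paired analysis was possible because each age has 1 library, and for the same reason no library could be left out. Of 22 ratios past 2-fold in 5 classes, 20 kept their sign under every alternative that gave a value and 13 stayed past 2-fold; 13 alternatives were run, of which 2 (unnamed clusters joined to connective tissue-like cells, and joint interzone-like joined to chondrocyte-like cells) were chosen after seeing the data. Clustering both libraries together turned Igfbp2 (-2.49) and Igfbp4 (-0.84) in the chondrocyte-like class, left 1 gene at least 2-fold lower in connective tissue-like cells in place of 2, and gave 5 genes with the same highest class at both ages in place of 3. A minimum of 1000 genes per cell also left 1 gene lower in connective tissue-like cells. Scaling to the median gene left 1 lower there, and gave 2 higher and 0 lower in muscle-like cells in place of 1 and 1. Under a mitochondrial limit of 5%, and with ribosomal, haemoglobin and mitochondrial genes out of the total, 0 genes were at least 2-fold lower in muscle-like cells. The cause was not tested. The highest class was the same in 177 of 208 comparisons with the clustering reported, but another class was highest at E15.5 for Igfbp4 in 8 of 13 alternatives, Igfbp2 in 7, Igf1r in 3 and Igfbp7 in 2, and at E12.5 for Igf1r in 4 and Igf1 in 3. Igfbp6 at E12.5 rests on few UMIs, and differences between classes in it were not detectable at this depth.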
